A study of Homo sapiens with 2 samples.

Results

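Small nucleolar RNA (snoRNA) genes with direct RNA reads were examined in polyadenylated RNA of MCF10a-Snail-ER cells. The genes were those of type snoRNA or scaRNA (small Cajal body RNA) in GENCODE release 44 that had at least 3 counts in the Nanopore table, and they were matched by Ensembl identifier in the Illumina table. This rule found 31 genes among the 990 snoRNA and scaRNA genes in the tables. The members were thus chosen by their Nanopore count, so their Nanopore counts and every ratio made from them are given as a description, without a test. MCF10a is a non-tumorigenic human mammary epithelial line. The derivative is 1 engineered line that stably makes a fusion of the transcriptional repressor Snail with the estrogen receptor. Tamoxifen (100 nM, 1 day), which activates such a fusion, had been given to all cells as the trigger of an epithelial-mesenchymal transition, and neither untreated cells nor the parental line were among the samples. From such cells, 1 library was read as native strands on a MinION with a direct RNA kit, and 1 was made with a TruSeq stranded mRNA kit for Illumina. With 1 library per platform no value has a replicate, and every interval below covers counting error only.

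snoRNAs are short nuclear RNAs that guide chemical changes in other RNAs, mainly ribosomal RNA. The box C/D class guides 2'-O-methylation and carries a C box near its start and a D box near its end. The box H/ACA class guides the change of uridine to pseudouridine, and carries a hinge (H) box between a pair of hairpins and an ACA box just before its end. scaRNAs act on spliceosomal RNAs. Most human snoRNAs are encoded in introns of host genes and are released by trimming of the spliced-out intron. Mature snoRNAs do not carry the long poly(A) tail of a messenger RNA.

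Counts summed to 403235 by Nanopore and to 191741714 by Illumina. A single Nanopore count was worth 2.48 counts per 1000000 (CPM), and a single Illumina count 0.00522 CPM. A count of 0 allows up to 3 counts, which is 7.44 CPM for the Nanopore table and 0.0156 CPM for the Illumina table. The basal epithelial genes KRT5 (680 Nanopore counts), KRT14 (322), KRT17 (215), LAMB3 (64), ITGB4 (55) and TP63 (5) were all present. Of 11 marker genes of leukocytes, endothelium and fibroblasts, 9 had no Nanopore count, and CD14 (5 counts) and DCN (10 counts) had some. By Illumina these 3 lists summed to 11.1, 5.16 and 32.9 CPM, against 3017 CPM for the 6 basal genes, with DCN (5075 counts) and CD14 (2100) highest and CD3E at 0.

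The sequences below are the RNAs with at least 7 Nanopore counts, SNORA40 (6 counts), some relatives from the same hosts that differ in count, and the members without a class symbol. SNORA10 and SNORD22 (ENSG00000277194) also had 6 counts and are not printed. The sequences are GENCODE transcripts on hg38, the build named in the submitters' processing notes, written as DNA from 5′ to 3′ on the strand of the gene. Capitals mark TGATG, the core of the C box, within the first 25 bases and CTGA, the D box, within the last 20 bases. In the H/ACA RNAs they mark ANANNA, the H box, between 35% and 65% of the length, and ACA placed 3 bases before the end, with overlapping matches joined. Only the transcribed strand was searched, and such matches are a description of the letters.
SNORD49B (chr17:16439505-16439576, plus strand): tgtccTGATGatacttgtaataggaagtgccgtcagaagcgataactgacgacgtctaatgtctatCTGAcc
SNORD49A (chr17:16440036-16440106, plus strand): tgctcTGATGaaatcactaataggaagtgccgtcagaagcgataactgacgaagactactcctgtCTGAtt
SNORD58B (chr18:49491664-49491729, minus strand): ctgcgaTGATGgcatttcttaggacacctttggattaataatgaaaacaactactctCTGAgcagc
SNORD58A (chr18:49491283-49491347, minus strand): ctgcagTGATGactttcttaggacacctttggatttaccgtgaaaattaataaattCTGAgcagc
SNORD58C (chr18:49489245-49489308, minus strand): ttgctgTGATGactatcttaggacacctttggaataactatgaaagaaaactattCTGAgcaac
SNORD86 (chr20:2656097-2656182, plus strand): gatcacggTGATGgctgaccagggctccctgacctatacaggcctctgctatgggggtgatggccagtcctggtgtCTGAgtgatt
SNORD104 (chr17:64146083-64146152, plus strand): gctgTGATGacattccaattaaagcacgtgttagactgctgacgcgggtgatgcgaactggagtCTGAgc
SNORD96A (chr5:181241814-181241892, minus strand): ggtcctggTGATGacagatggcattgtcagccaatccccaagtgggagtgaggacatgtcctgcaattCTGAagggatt
SNORA70 (chrX:154400281-154400415, plus strand): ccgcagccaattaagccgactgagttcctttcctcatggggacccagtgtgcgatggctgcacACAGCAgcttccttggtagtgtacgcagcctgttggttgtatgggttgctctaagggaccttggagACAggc
SNORA40 (chr11:93735111-93735236, minus strand): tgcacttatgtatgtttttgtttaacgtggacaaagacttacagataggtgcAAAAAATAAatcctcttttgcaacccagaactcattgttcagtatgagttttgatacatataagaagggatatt
ENSG00000266692 (chr21:44437121-44437175, plus strand): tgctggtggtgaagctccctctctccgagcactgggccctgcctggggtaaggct
ENSG00000264452 (chr21:44439035-44439110, plus strand): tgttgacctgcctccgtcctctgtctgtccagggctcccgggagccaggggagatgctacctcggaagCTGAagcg

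By approved symbol, 16 of the 31 genes were C/D (SNORD symbols), 13 were H/ACA (SNORA symbols) and 2 had only an identifier. The C/D members were 5.11% of the 313 C/D genes in the tables and the H/ACA members 6.10% of the 213 H/ACA genes. None of the 24 genes with a SCARNA symbol had a Nanopore count, although 17 of them had Illumina counts, 910 in all. The core TGATG together with CTGA was found in 13 of the 16 C/D members, against 76.0% of all C/D genes and 27.7% of all 990 genes. The full C box, ATGATGA or GTGATGA, was found in 8 of the 16, against 62.3% of all C/D genes and 22.7% of all 990. SNORD49B, SNORD58B and SNORD86, the 3 members with the highest Nanopore counts, hold the core but not the full box. Both ANANNA and ACA were found in 8 of the 13 H/ACA members, against 61.0% of all H/ACA genes and 24.8% of all 990. The 2 members without a class symbol hold neither TGATG nor the ACA placement, and CTGA occurs in ENSG00000264452 only.

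The members were sparsely counted, and 20 of the 31 had 3 or 4 Nanopore counts. The Nanopore counts of all 990 genes summed to 294, or 0.0729% of the library (95% exact binomial interval 0.0648 to 0.0817%), and those of the 31 members to 193. Single counts were seen for 39 genes, 2 counts for 31 genes and 3 counts, the lowest that made a member, for 15 genes. Some genes are annotated on nearly the same bases, such as those named SNORD3D, and these sums and numbers of genes take no account of it. Of the 31 genes just outside the rule, with 2 counts, 15 had no Illumina count and the median was 2, and those with the most were SNORD30 (248 Illumina counts), SNORA33 (188), SNORD100 (147), SNORA61 (85) and SNORD38A (83). Of the 15 just inside it, with 3, 6 had no Illumina count and the median was 4, and those with the most were SNORD17 (503 Illumina counts), SNORA3B (176), SNORA81 (58), SNORA18 (28) and SNORA4 (24). A count of 3 has a 95% exact Poisson interval of 1.53 to 21.7 CPM around 7.44 CPM, so the order of the members with 3 to 7 counts is not resolved at this depth.

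**Figure D1:**
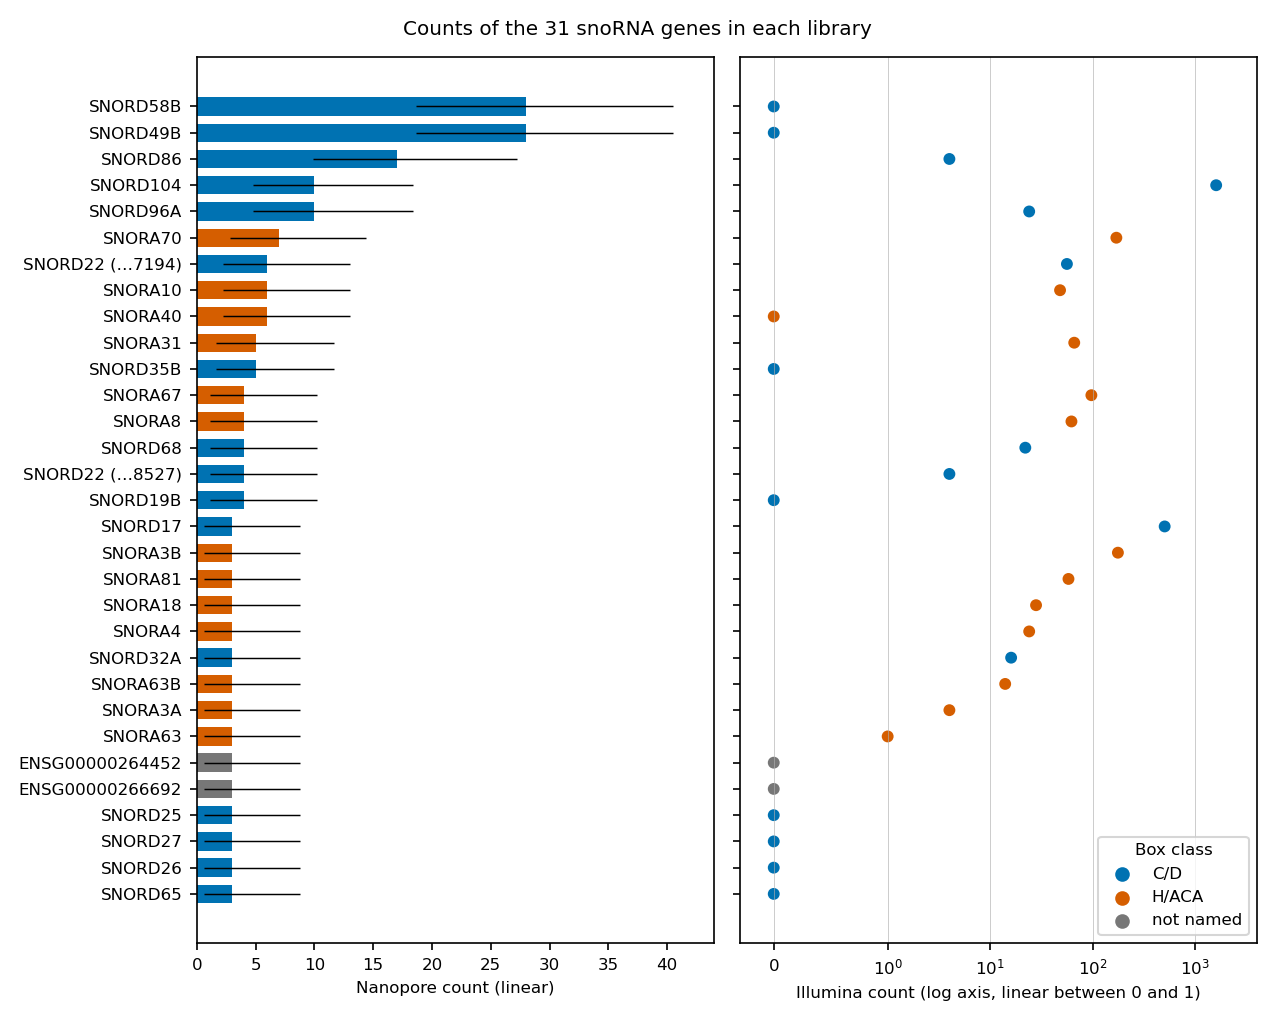
Counts of each of the 31 genes: bars give Nanopore counts on a linear axis with 95% exact Poisson intervals, points give Illumina counts on a log axis that is linear between 0 and 1. SNORD58B and SNORD49B lead with 28 Nanopore counts each and stand at 0 by Illumina, while SNORD104 has the most Illumina counts, 1599. Both genes named SNORD22 carry the last 4 digits of their identifiers.

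Among C/D members, Nanopore counts ran from 3 to 28 with a median of 4. SNORD49B (ENSG00000277108) and SNORD58B (ENSG00000271982) each had 28 Nanopore counts, 69.4 CPM (46.1 to 100.4), and no Illumina count. Set against the 3 counts that a listing at 0 allows, the value of 69.4 CPM was at least 4438-fold higher by Nanopore, a bound that does not include the counting error of the 28 counts. SNORD86 (ENSG00000212498), which lies in the gene of the C/D core protein NOP56, had 17 Nanopore and 4 Illumina counts, a 2021-fold difference in CPM (659 to 8255). SNORD96A (ENSG00000272296), inside RACK1, the gene of a ribosome-bound scaffold protein, had 10 and 24 counts, a 198-fold difference (84.6 to 430). These 4 C/D RNAs were at or below 0.125 CPM by Illumina and stood between 24.8 and 69.4 CPM by Nanopore.

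SNORD104 and SNORD17 were the C/D members with the most Illumina counts and the only members of either class whose ratio stayed under 4-fold. SNORD104 (ENSG00000199753) had 10 Nanopore and 1599 Illumina counts, 24.8 CPM and 8.34 CPM, a 2.97-fold difference (1.42 to 5.48). The Illumina share would have given 3.36 counts at the Nanopore depth. SNORD17 (ENSG00000212232), the longest member at 237 bases, had 3 and 503 counts, a 2.84-fold difference whose interval (0.583 to 8.34) includes 1. Of the other C/D members, SNORD22 (ENSG00000277194) had 6 Nanopore and 56 Illumina counts, SNORD68 had 4 and 22, SNORD32A had 3 and 16, and the second gene that GENCODE names SNORD22 (ENSG00000278527) had 4 and 4. SNORD35B (5 Nanopore counts), SNORD19B (4) and SNORD25, SNORD26, SNORD27 and SNORD65 (3 each) had no Illumina count.

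The H/ACA members had 3 to 7 Nanopore counts with a median of 3, the minimum that the rule set. Their Illumina counts were higher, with a median of 48 against 2 for C/D members. SNORA70 (ENSG00000207165), in the ribosomal protein gene RPL10, had 7 Nanopore and 170 Illumina counts, a 19.6-fold difference in CPM (7.75 to 41.2). SNORA10 (ENSG00000206811), in the ribosomal protein gene RPS2, had 6 and 48 counts, and SNORA31 (ENSG00000199477), in TPT1, had 5 and 66. SNORA40 (ENSG00000210825), in TAF1D, the gene of an RNA polymerase I factor, was the H/ACA member without an Illumina count, with 6 by Nanopore. SNORA67 had 4 Nanopore and 97 Illumina counts and SNORA8 had 4 and 62. The remaining H/ACA members each had 3 Nanopore counts. Their Illumina counts were 176 for SNORA3B, 58 for SNORA81, 28 for SNORA18, 24 for SNORA4, 14 for SNORA63B, 4 for SNORA3A and 1 for SNORA63.

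On the log2(CPM + 1) scale, 29 of the 31 members were at least 4-fold higher by Nanopore and none was 4-fold higher by Illumina. Over all 11293 genes with at least 3 Nanopore counts, 16.5% were 4-fold higher by Nanopore and 3.25% by Illumina. The rule used the Nanopore count, so nothing is read from this difference. The median log2 ratio was 3.08 for the members, 3.36 for the C/D and 3.04 for the H/ACA members, and −0.20 over the 11293 genes. The pseudocount of 1 CPM sets much of these ratios: with 5 CPM only 4 members stayed past 4-fold, and with Illumina levels per base of gene length, scaled to the same total, 16 did.

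The Illumina counts, which the rule did not use, differed with length and with class, which went largely together. An Illumina count of 0 was seen for 11 of the 31 members, against 1.93% of the 11293 genes with at least 3 Nanopore counts. These 11 were 8 of the 16 C/D members, 1 of the 13 H/ACA members and both members without a class symbol. By length, 10 of the 15 members under 100 bases and 1 of the 16 of 100 bases or more were at 0. The same order held in snoRNA genes outside the rule whose host had at least 10 Nanopore counts: 70.6% of 187 C/D genes and 34.2% of 79 H/ACA genes were at 0, or 72.6% of those under 100 bases and 40.0% of longer ones. Class and length were largely confounded: C/D members had a median length of 81.5 bases and H/ACA members of 132 bases, and no H/ACA gene with such a host was under 100 bases. Within the C/D class, 8 of the 13 members under 100 bases and none of the 3 longer ones (both SNORD22 genes and SNORD17) were at 0. Among C/D genes outside the rule with such hosts, 128 of 175 under 100 bases and 4 of 12 longer ones were at 0. Of the H/ACA genes outside the rule with such hosts, all of 100 bases or more, 27 of 79 were at 0. No difference between classes apart from length is read from these counts.

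**Figure D2:**
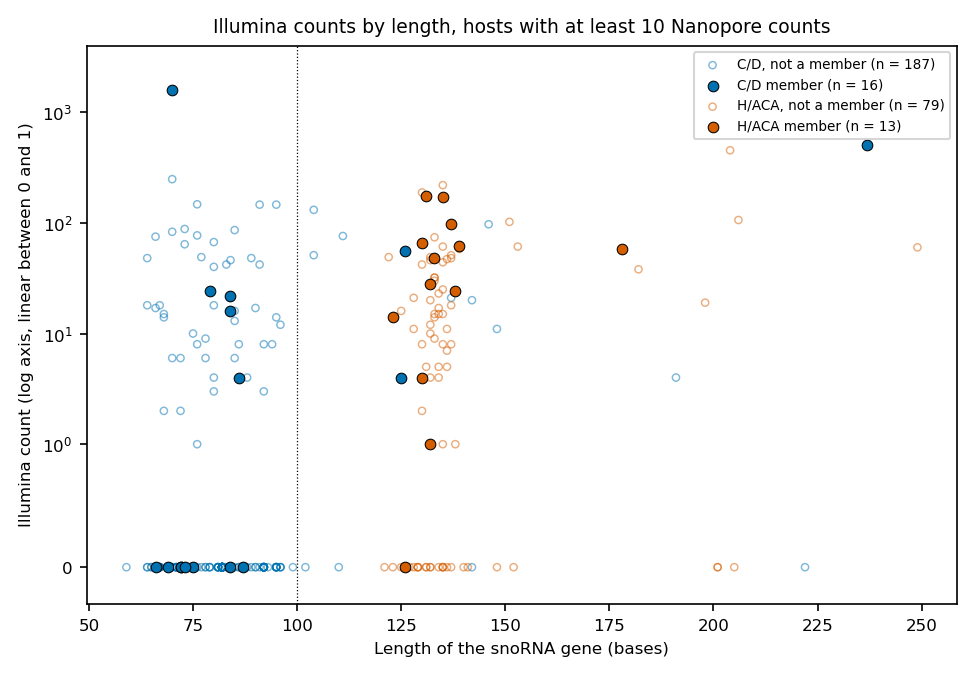
Illumina count (log axis, linear between 0 and 1) against gene length for C/D and H/ACA genes whose host had at least 10 Nanopore counts; filled points are members, open points are other snoRNA genes, and the dotted line stands at 100 bases. Of the members under 100 bases shown, 8 of 13 lie at 0, against 1 of the 16 longer ones.

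Every member lay inside a host, taken as a same-strand protein-coding or lncRNA gene that contains the whole snoRNA, and so did 59.4% of the 959 other snoRNA genes. The 31 members had 19 hosts, 16 protein-coding and 3 lncRNA genes. Of these, 7 were ribosomal protein genes with 8 members, and the 3 lncRNA genes SNHG1, SNHG25 and SNHG29 (small nucleolar RNA host genes) held another 8. In the annotation, 25 of the 31 members lay wholly inside an exon of at least 1 host transcript, 3 were partly exonic and 3 intronic. For 23 members such an exon belonged to a transcript of the retained-intron type, and so it did for 73 of the 959 other snoRNA genes. With a host of at least 10 Nanopore counts these shares were 79.3% of 29 members and 19.9% of 311 other genes. No member lay wholly inside an exon of the host's canonical transcript, and 29 lay in its introns. Among members with a host of at least 10 Nanopore counts, 86.2% of 29 were wholly exonic in some transcript, against 40.5% of the 311 other snoRNA genes with such hosts. The share counts annotated transcripts and not reads, and hosts with more annotated transcripts have more chances to cover a snoRNA.

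The 3 wholly intronic members, SNORD104, SNORD17 and SNORA3B, had 1599, 503 and 176 Illumina counts, the highest of the 31. The 25 exonic members had 0 to 170, with a median of 4. Across all snoRNA genes in hosts with at least 1000 Illumina counts, the median Illumina count was 0 for intronic and 0 for exonic genes. It was 17 for partly exonic genes. The share of genes with an Illumina count was 44.3% of 235 intronic, 40.8% of 169 exonic and 63.0% of 27 partly exonic genes. How reads that fall on both a snoRNA and a host exon were counted is not stated for either table, and its part in these counts was not tested. A Nanopore read counted for a snoRNA may also have been counted for its host. Some genes annotated on nearly the same bases had equal counts: SNORA50C and ENSG00000281311, both in SNHG25, each had 2 Nanopore and 32 Illumina counts. SCARNA2 and the gene that contains it each had 27 Illumina counts. Whether these were the same reads was not tested.

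The members' Nanopore counts were set against those of their hosts as a description, since the rule used these counts. In ribosomal protein genes the Nanopore count was a median of 0.448% of the host's count (0.254 to 3.55%, 8 members). In the SNHG genes it was a median of 14.3% (1.44 to 52.6%, 8 members), and in the other hosts with at least 10 counts 6.12% (0.359 to 39.5%, 13 members). The minimum of 3 counts fixes the lower end: a member in SNHG1, with 21 counts, cannot be under 14.3%, and one in RPL13A, with 1183 counts, can be as low as 0.254%. It also sets medians: 14.3% is the value of SNHG1 members at 3 counts, and 6.12% that of EIF4A2 members at 3 counts. No difference between kinds of host or between classes is therefore read from these percentages. By class the median was 13.9% for C/D and 6.12% for H/ACA members. In hosts with at least 50 counts these medians were 1.23% and 0.429%, and for members with at least 5 counts they were 13.5% and 0.655%.

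By Illumina the members' counts were a median of 0.00160% of their hosts' counts for C/D and 0.0418% for H/ACA members. The rule kept members by their Nanopore count, so no difference between platforms is read from these shares. Among the 311 other snoRNA genes with a host of at least 10 Nanopore counts, the median Nanopore share was 0%. Illumina counts grow with length, so the counts of member and host were also divided by exonic length. Per base, the C/D members then stood at a median of 0.0614% and the H/ACA members at 1.66% of the host's level. SNORD104 stood apart, with 65.6% of the count of SNHG25 and 319% of its level per base, and SNORD17 reached 57.2% of the level of SNX5 per base.

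**Figure D3:**
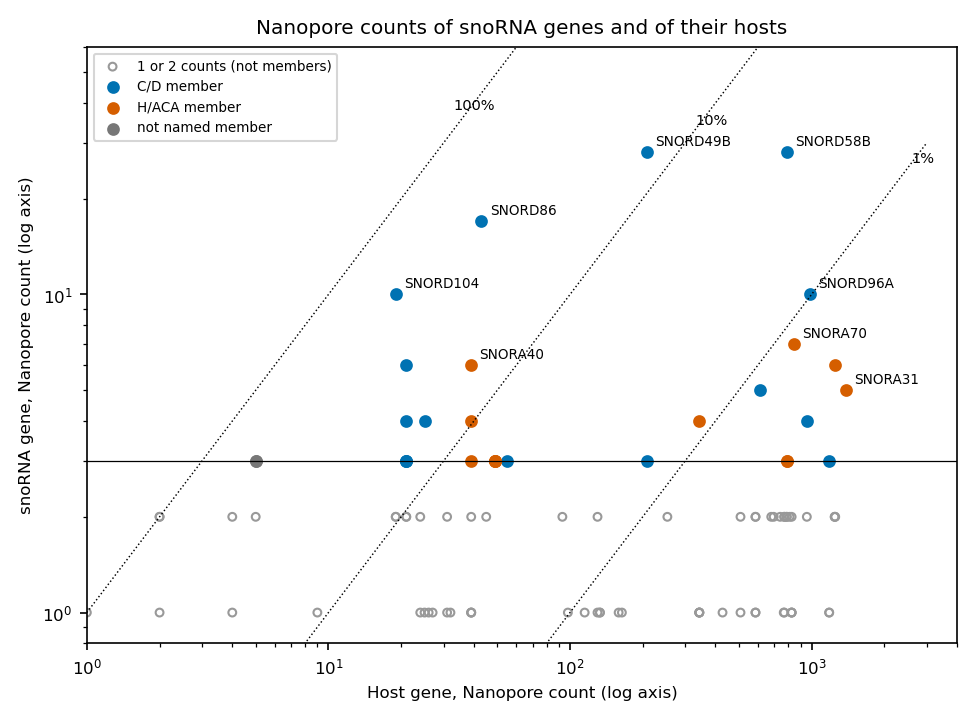
Nanopore count of each snoRNA gene (vertical, log axis) against that of its host (horizontal, log axis), with dotted lines at 1%, 10% and 100% of the host and a solid line at the minimum of 3 counts; open points are genes with 1 or 2 counts, and genes with the same pair of values share a point. Among members whose host has at least 10 counts, SNORD104 (52.6%) and SNORD86 (39.5%) lie nearest the 100% line, and members in ribosomal protein hosts lie near or below the 1% line, apart from SNORD58B (3.55%).

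Most snoRNA genes of abundant hosts were not members. The share of snoRNA genes that were members was 0.826% of 242 in hosts under 10 Nanopore counts, 6.53% of 245 in hosts with 10 to 99, 8.82% of 34 in hosts with at least 100 but under 500, and 16.4% of 61 in hosts with 500 or more. Even in these last hosts, 25 of the 61 had no Nanopore count. RPL4 (771 counts) holds 5 snoRNA genes and no member. Across the 29 members with a host of at least 10 counts, Spearman's rho between the member's and the host's Nanopore count was 0.145, a description across genes that share a library and, in part, hosts.

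Relatives within 1 host differed widely in count. RPL17, a ribosomal protein gene with 788 Nanopore and 310953 Illumina counts, holds SNORD58B, SNORD58A and SNORD58C, with 28, 0 and 2 Nanopore counts and no Illumina count. SNORD58B and SNORD58A, printed above, share 52 of 65 aligned bases (80.0%), and SNORD58B and SNORD58C share 53 of 64 (82.8%). SNORD58B lies nearest the 5′ end of RPL17, and 6 of the 24 annotated RPL17 transcripts contain it in an exon. SNHG29 (208 Nanopore and 167588 Illumina counts) holds SNORD49B, SNORD49A and SNORD65, with 28, 0 and 3 Nanopore counts and no Illumina count. SNORD49B and SNORD49A share 57 of 71 aligned bases (80.3%), and 5 of 62 SNHG29 transcripts hold SNORD49B whole in an exon. In both hosts the RNA with the most counts was the one nearest the 5′ end.

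NOP56 (43 Nanopore and 66650 Illumina counts) showed the same contrast within 1 gene. SNORD86, the third of its 5 snoRNA genes, had 17 Nanopore counts, 42.2 CPM (24.6 to 67.5) and 39.5% of the host's count, and SNORD110, SNORA51, SNORD56 and SNORD57 had none. By Illumina the order was different, with 49 counts for SNORA51, 6 for SNORD57, 4 for SNORD86 and 0 for SNORD110 and SNORD56. SNORD86 lies whole in an exon of 5 of 21 NOP56 transcripts. In GNL3, the gene of nucleostemin, SNORD19B had 4 Nanopore counts and no Illumina count, and SNORD19C and SNORD69 had 0 and 1 Nanopore counts with 77 and 49 by Illumina. Nanopore counts this low are not told apart at this depth. In SNHG25 (19 Nanopore and 2437 Illumina counts), SNORD104 had 52.6% of the host's Nanopore count. The interval of 28.9 to 75.6% holds only if its 10 counts are part of the host's 19. That was not tested, and SNORD104 is annotated as intronic. The other 2 snoRNA genes of SNHG25, SNORA50C and ENSG00000281311, cover nearly the same bases, and each is listed with 2 Nanopore counts.

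**Figure D4:**
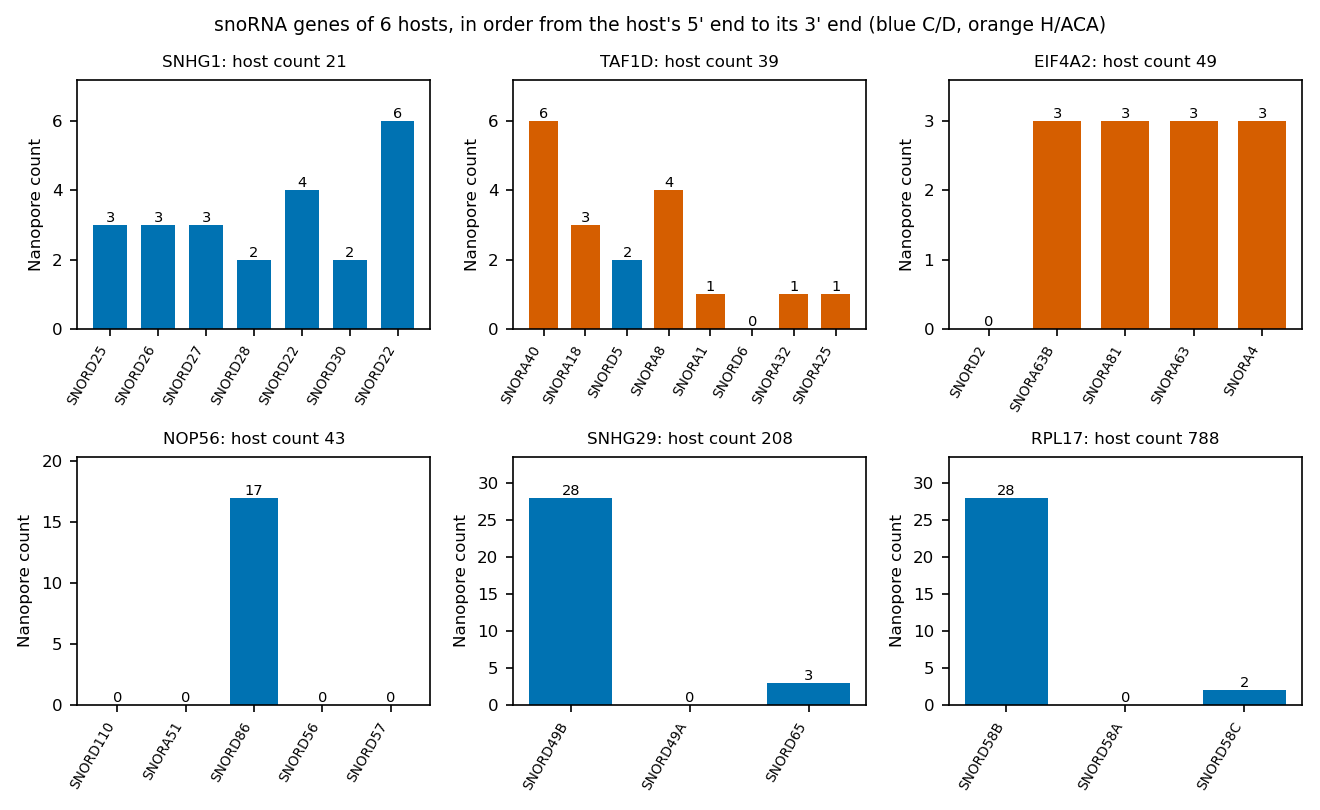
Nanopore counts of every snoRNA gene in 6 hosts, ordered from the 5′ end of the host (left) to its 3′ end (right), with blue bars for C/D and orange for H/ACA; each panel has its own linear axis from 0 and names the host's own count. In NOP56, SNHG29 and RPL17 a single snoRNA holds 17, 28 and 28 counts while its neighbours hold 0 to 3, and in SNHG1, EIF4A2 and TAF1D no snoRNA has more than 6.

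The hosts with 3 or more members were SNHG1, EIF4A2 and TAF1D, and their snoRNA genes had 0 to 6 Nanopore counts. SNHG1, an lncRNA gene with 21 Nanopore and 22058 Illumina counts, held 5 members among its 7 snoRNA genes, all C/D. From the 5′ end they had 3 (SNORD25), 3 (SNORD26), 3 (SNORD27), 2 (SNORD28), 4 (SNORD22, ENSG00000278527), 2 (SNORD30) and 6 (SNORD22, ENSG00000277194) Nanopore counts. By Illumina the same genes had 0, 0, 0, 0, 4, 248 and 56 counts. The Nanopore counts of these 7 genes summed to 23, above the host's own 21. Whether the same reads were counted for several of them, or for the host, was not tested. The genes named SNORD22 share 87 of 125 aligned bases (69.6%), so they are not near-identical copies. EIF4A2 (49 Nanopore and 33511 Illumina counts), the gene of a translation initiation helicase, held 4 H/ACA members with 3 Nanopore counts each, SNORA63B, SNORA81, SNORA63 and SNORA4, and the C/D gene SNORD2 with 0. All 4 lie whole in annotated exons of this host, and whether the same reads were counted for several of them was not tested. TAF1D (39 Nanopore and 26859 Illumina counts) held SNORA40, SNORA18 and SNORA8, with 6, 3 and 4 Nanopore counts, among 8 snoRNA genes, and the other 5 had 0 to 2.

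Both members without a class symbol lie in TRPM2, the gene of a cation channel, and overlap exons of its canonical transcript in part. ENSG00000266692 and ENSG00000264452 had 3 Nanopore counts each, no Illumina count, and a host with 5 Nanopore and 1936 Illumina counts. The pair share 34 of 55 aligned bases (61.8%). Among snoRNA genes within 20% of the member's own length, 12 of the 31 members had another of at least 90% identity, among them SNORD58B (90.9%), SNORD96A (92.4%), SNORA70 (94.1%), SNORA40 (98.4%) and SNORA10 (98.5%). Each of these closest copies had no Nanopore count, and how reads that map to several places were treated is not stated, so counts of these 12 members are uncertain in that respect.

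A set of well-known snoRNAs and other short noncoding RNAs had 0 to 2 Nanopore counts each. SNORD3A (U3), which acts in cutting of the ribosomal RNA precursor, had 1 Nanopore and 429 Illumina counts, and SNORD118 (U8) had 2 and 13. The 2 genes named SNORD3D are annotated on nearly the same bases. Each is listed with 2 and 5 counts, so they may not be separate observations, which was not tested. SNORA73A and SNORA73B, both inside SNHG3, had no Nanopore count and 106 and 452 Illumina counts, and SNORD13 had 0 and 4. The telomerase RNA TERC had 1 and 3 counts, and the RNAs of RNase MRP (RMRP) and RNase P (RPPH1) had 0 and 333 and 0 and 96. At the Nanopore depth the Illumina shares would have given 0.902 counts for SNORD3A and 0.951 for SNORA73B, so their low counts are within what this depth allows.

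The genes of the snoRNP proteins were present in both libraries. Of the 4 C/D core protein genes, FBL, the methyltransferase, was at 109 CPM by Nanopore and 564 CPM by Illumina (44 and 108108 counts; log2 ratio −2.36), and was the one 4-fold higher by Illumina. NOP56, NOP58 and SNU13 had ratios of −1.70, −1.08 and −0.15. Of the 4 H/ACA core protein genes, GAR1 was past 4-fold (8 and 16307 counts; −2.05), and DKC1, the pseudouridine synthase, NOP10 and NHP2 had ratios of −1.77, −0.62 and 0.32. Of 14 assembly and transport genes, 1 was 4-fold higher by Illumina, ZNHIT6 (−2.62). So were 2 of 11 processing and decay genes, PARN (−2.37) and SMG6 (−2.03). ZNHIT6, PARN and SMG6 had only 3, 4 and 2 Nanopore counts, too few to resolve a 4-fold difference. None of the 33 genes was 4-fold higher by Nanopore. Over the 12414 genes whose mean of both libraries reached 5 CPM, 8.14% were 4-fold higher by Illumina and 12.9% by Nanopore, with a median ratio of −0.42. The medians of these lists were −1.39, −1.20, −0.92 and −0.58. These are ratios of counts, not of levels per length.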

How the data were processed

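The authors deposited whole-number counts per Ensembl gene, without normalization, 1 table per library. The submitters' processing notes name hg38, minimap2 2.11-r797, HISAT2 2.1.0 and featureCounts. Their roles and options, including the treatment of strand, of reads that overlap several genes and of reads that map to several places, are not given in the sources used here. Names, types and exons came from GENCODE release 44, which has 991 snoRNA and scaRNA genes, 990 of them in the tables. The host was the same-strand protein-coding or lncRNA gene that contains the snoRNA, with named genes before others, readthrough genes last, then the smallest body. Counts were divided by the library total to give CPM. The ratio of a gene is log2(CPM + 1) by Nanopore minus that by Illumina, and a gene was called at 4-fold. With 1 library per platform no test was fitted. Intervals are 95% exact Poisson (single counts), exact binomial (shares, with the part taken as included in the whole) and exact conditional binomial (folds). They cover counting error only, since amplified reads may repeat 1 molecule. Calls and intervals were tested on simulated data, but only for genes with higher Illumina levels than any member and without a choice by Nanopore count. That test does not cover the range of the members. TMM factors came from edgeR 4.0.16 in R 4.3.3, the rest from Python 3.11.15. Identity is identical bases over the shorter length in a global alignment without cost for end gaps.

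Named genes were the 8 members of each class with the most Nanopore and 4 with the most Illumina counts, members of hosts with 3 or more, extremes of the percentage of host, genes at the edge of the rule and a fixed set of other noncoding RNAs. Other relatives in the same hosts were named after their values were seen. The members and lists were chosen with earlier results of these data known.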

Additional observations from a re-analysis of the deposited data

How the results depend on the processing

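With at least 5 or 10 Nanopore counts the members numbered 11 or 5, those inside a host exon 9 or 4, and those with no Illumina count 4 or 2, because fewer genes were kept. Counting canonical transcripts only, 0 members were inside a host exon. The count past 4-fold was 4 with a pseudocount of 5 CPM, 16 with Illumina counts per length and 13 of the 15 members kept with a mean of at least 5 CPM. The median log2 ratio of the members was 5.96 with a pseudocount of 0.1 CPM, 1.31 with 5 CPM, 2.29 with Illumina counts per length and 3.62 with a mean of at least 5 CPM. TMM or median-ratio scaling left the count at 29. Divisions by length were chosen after seeing the data: by union exonic length the Illumina percentages of host were 0.0614% (C/D) and 1.66% (H/ACA), and with canonical transcript length for the host 0.0214% and 0.641%. Choosing the host by Illumina count or by longest body left the 4 medians of percentage of host as they were. No H/ACA member reached 10 counts, so that alternative gave no value for the class. No paired analysis was possible because each platform has a single library. The Nanopore depth limits every value: 20 of the 31 members had 3 or 4 counts.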
